A study of Mus musculus with 6 samples.

Results

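A set of 9 genes that set how far the kinase complex mTORC1 is held back under stress was followed in mouse embryonic fibroblasts (MEFs), adherent cells of connective tissue grown from embryos. They were Ddit4, Ddit4l, Sesn1, Sesn3, Tsc1, Tsc2, Deptor, Rheb and Eif4ebp1, taken by name as 9 of the 55335 genes in the count table. The 3 Ctrl libraries came from wild-type parental MEFs, and the Confine libraries came from wild-type MEFs that had crossed a transwell membrane with 3 μm pores and were collected after 15 h. Both groups were the same MEF line, cultured with serum, and no allele or drug differed between them. The medium at the 3 μm membrane is not given in the sources used here, but the methods for a transwell assay with wider pores put serum below the insert alone, and any difference in serum cannot be told apart from the passage. The Confine columns 1 and 2 were equal in every gene and were counted as 1 library, called Confine 1/2, beside Confine 3. No label says that the libraries of a group came from separate cultures, so p-values measure the spread between these libraries, which may be technical. No library is labelled as coming from cells that stayed on the membrane.

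mTORC1 drives protein synthesis and growth when amino acids, growth factors and energy are plentiful. The TSC1 and TSC2 proteins form a complex that switches off RHEB, the small GTPase that turns mTORC1 on at the lysosome. REDD1, encoded by Ddit4, is induced by hypoxia, DNA damage and glucocorticoids and acts through TSC, and Ddit4l encodes the related REDD2. Sestrins act mainly on the amino acid branch, by binding the GATOR2 complex upstream of the Rag GTPases. DEPTOR binds mTOR itself and lowers its kinase activity. 4E-BP1, encoded by Eif4ebp1, lies downstream: it binds the cap-binding protein eIF4E and blocks translation until mTORC1 phosphorylates it. Rheb is therefore an activator, and Eif4ebp1 a target, so the 9 are called mTORC1 control genes below. The libraries measured mRNA, and neither protein nor phosphorylation was measured in them.

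Ddit4 and Sesn3, which moved in opposite directions, are shown by the 250 bases before their RefSeq start sites (GRCm38.p6). Capitals mark ACGTG, the core that hypoxia-inducible factors (HIF) bind. The Ddit4 window is chr10:59951771-59952020, minus strand, and the Sesn3 window is chr9:14276051-14276300, plus strand.
Ddit4: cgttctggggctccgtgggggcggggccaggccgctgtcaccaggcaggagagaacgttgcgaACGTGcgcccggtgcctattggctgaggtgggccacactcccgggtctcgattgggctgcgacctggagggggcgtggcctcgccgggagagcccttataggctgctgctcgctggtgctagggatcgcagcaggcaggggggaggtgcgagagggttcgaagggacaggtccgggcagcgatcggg
Sesn3: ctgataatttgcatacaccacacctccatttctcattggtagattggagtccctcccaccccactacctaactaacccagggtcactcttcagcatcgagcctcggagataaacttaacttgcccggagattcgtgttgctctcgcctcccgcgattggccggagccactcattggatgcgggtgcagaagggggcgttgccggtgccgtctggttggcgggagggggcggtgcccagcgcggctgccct

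The Ddit4 window held ACGTG at its base 64, 187 bases before the start, and the Sesn3 window held none. On both strands, ACGTG was present in 16.6% of the 32851 promoter windows of the same length, so a match is common. RefSeq windows were at hand for 7 of the 9 genes, all but Deptor and Eif4ebp1. Among these 7, Rheb was the other gene with a match, as part of CACGTG, the E-box core, which 6.02% of windows held. The letters TGATGNAAN, a form of the ATF4 element, and GTAAACA, a FOXO core, were found in 3.44% and 3.17% of all windows and in no window of the 7 genes. These matches describe the letters in the windows and carry no information on binding.

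Of the 8 tested genes, Ddit4 and Eif4ebp1 rose in Confine, Deptor, Sesn3 and Sesn1 fell, and Tsc1, Tsc2 and Rheb did not pass the test. The test was edgeR's quasi-likelihood test, and a call needed an adjusted p under 0.05, with the adjustment over all 15881 genes tested. Thus 5 of the 8 were called (62.5%), where 23.0% of all tested genes were. By direction, 2 were higher and 3 lower, beside 12.8% of all tested genes called higher and 10.2% called lower. Over all genes this was 2035 higher and 1619 lower, against 1444 and 2805 with library size alone as the scaling, which moved the median of all genes by -0.21 and called 6 of the 8. The median log2 fold change was -0.31 over the 8 genes and -0.0021 over all tested genes. The median absolute log2 fold change was 0.93 over the 8 genes and 0.39 over all tested genes. None of the 8 passed an absolute log2 fold change of 1.5 as well, which 8.00% of all tested genes did. Each of the 8 had at least 142 counts in every library. In bulk RNA, a change in the share of cells that express a gene cannot be told apart from a change in RNA per cell.

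**Figure D1:**
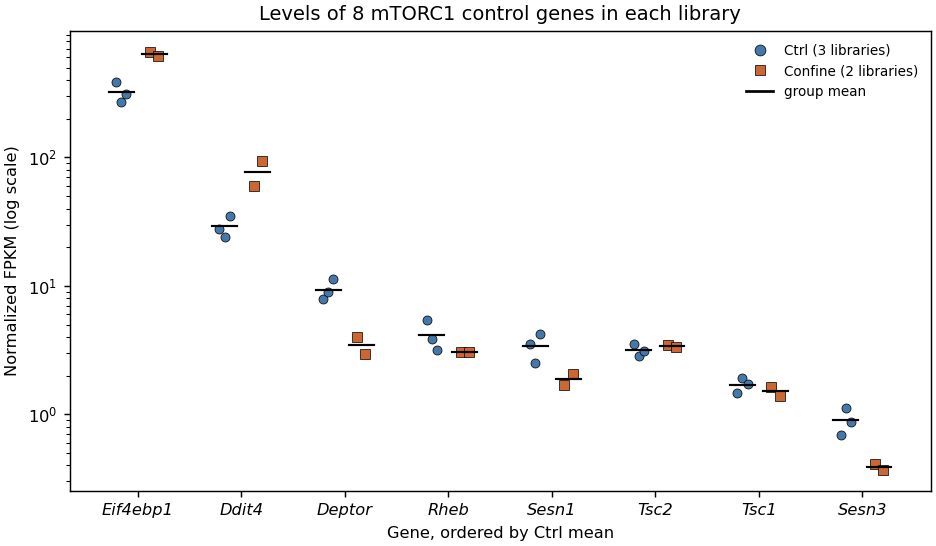
Normalized FPKM (counts scaled to library size and per kilobase of exon, log axis) of the 8 tested genes in each library, ordered by their Ctrl mean; circles are the 3 Ctrl and squares the 2 Confine libraries, and bars are group means. Ddit4 and Eif4ebp1 sit higher in Confine, Deptor, Sesn1 and Sesn3 sit lower, and the Tsc1 and Tsc2 groups overlap.

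Ddit4 (ENSMUSG00000020108.4, chr10:59949669-59951834, minus strand, GRCm38), the stress-induced REDD1 gene, was read at 48.8, 42.3 and 61.8 normalized CPM (counts scaled to a common library size by TMM) in Ctrl 1 to 3, and at 105 and 165 CPM in Confine 1/2 and Confine 3. Both Confine libraries lay above every Ctrl library, although they differed from each other by 1.56 fold. The level rose 2.65-fold (95% interval 1.94 to 3.62, log2 fold change 1.40, SE 0.21, edgeR adjusted p = 8.36e-05). Of all tested genes, 94.1% had a lower log2 fold change. Its relative Ddit4l (ENSMUSG00000046818.7, chr3:137621612-137628333), the REDD2 gene, had 1 count in Ctrl 1 and 0 in the other 4 libraries. It was not tested. A floor of 3 counts, or 0.101 to 0.128 CPM by library, was set, and levels under it were not told apart from absence.

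The sestrin genes split: Sesn3 and Sesn1 fell, and Sesn2, which was no member of the 9, did not pass the test. Sesn3 (ENSMUSG00000032009.8, chr9:14275067-14333101), known as a FOXO target, was at 10.5, 17.2 and 13.4 CPM in Ctrl and at 6.22 and 5.64 CPM in Confine. The Confine libraries lay close together and below all of Ctrl. Its Confine level was 43.4% of Ctrl (log2 fold change -1.20, SE 0.25, edgeR adjusted p = 0.0014). Sesn1 (ENSMUSG00000038332.13, chr10:41809935-41908424), known as a p53 target, was at 14.0, 9.90 and 16.9 CPM in Ctrl and at 6.72 and 8.18 CPM in Confine. The groups did not overlap, but Ctrl 2 stood near the higher Confine library. The Sesn1 level in Confine was 54.8% of Ctrl (log2 fold change -0.87, SE 0.25, edgeR adjusted p = 0.0163), and this call was lost without either Confine library, at edgeR adjusted p = 0.0635 without Confine 3 and 0.176 without Confine 1/2.

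Sesn2, which encodes a leucine-binding sestrin and is also known as an ATF4 and p53 target, had a log2 fold change of -0.01 (95% interval -0.43 to 0.42, edgeR adjusted p = 0.990). Per length, Sesn2 was the most abundant sestrin in both groups, at 5.78 ± 0.899 FPKM in Ctrl (SD, n = 3) and 5.77 ± 0.939 in Confine (SD, n = 2). Its share of the summed sestrin FPKM was 57.3% ± 4.95 in Ctrl and 71.8% ± 1.23 in Confine. The sum itself was 10.1 ± 1.26 FPKM in Ctrl and 8.03 ± 1.17 in Confine, and the groups overlapped. The Sesn1 to Sesn3 count ratio within a library overlapped between groups too, at 0.576 to 1.33 in Ctrl and 1.08 to 1.45 in Confine.

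The TSC genes did not pass the test. Tsc1 (ENSMUSG00000026812.16, chr2:28641228-28691167), which encodes the stabilizing subunit hamartin, was at 17.4, 22.9 and 20.2 CPM in Ctrl and at 19.2 and 16.5 CPM in Confine. Tsc2 (ENSMUSG00000002496.10, chr17:24595816-24632630), which encodes the catalytic subunit tuberin, was at 33.6, 27.6 and 29.9 CPM in Ctrl and at 33.5 and 31.9 CPM in Confine. For both genes the groups overlapped. The log2 fold change of Tsc1 was -0.18 (95% interval -0.60 to 0.24, edgeR adjusted p = 0.585). That of Tsc2 was 0.11 (95% interval -0.28 to 0.49, edgeR adjusted p = 0.730), and its sign turned with library size alone as the scaling. These intervals leave room for changes of either sign. Tsc2 shares 693 exonic bases with Pkd1 on the opposite strand, a gene with 1207 to 1680 counts per library, and whether counting used the strand is not given in the sources used here.

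Rheb (ENSMUSG00000028945.9, chr5:24802823-24842624), the GTPase that TSC acts on, was at 41.5, 29.6 and 24.6 CPM in Ctrl and at 23.5 and 23.7 CPM in Confine. The Confine libraries lay just under the lowest Ctrl library, while the Ctrl libraries themselves spanned 1.69 fold. The log2 fold change was -0.44 (95% interval -0.89 to 0.02, edgeR adjusted p = 0.165), so the difference did not pass the test. It passed with library size alone as the scaling (log2 fold change -0.64, edgeR adjusted p = 0.0338) and without Ctrl 3 (log2 fold change -0.61, edgeR adjusted p = 0.0433).

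Deptor (ENSMUSG00000022419.16, chr15:55112317-55259271), the subunit that inhibits mTOR from within its complexes, fell furthest of the 8 genes. It was at 69.6, 79.4 and 100 CPM in Ctrl and at 35.3 and 26.0 CPM in Confine. All Ctrl libraries were well above both Confine libraries. The Confine level was 37.0% of Ctrl (log2 fold change -1.43, SE 0.21, edgeR adjusted p = 6.94e-05), and 4.33% of all tested genes had a lower log2 fold change. An opposite-strand transcript, Gm9920, overlaps 303 exonic bases of Deptor and had at most 10 counts in a library.

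Eif4ebp1 (ENSMUSG00000031490.6, chr8:27260329-27276674), the 4E-BP1 gene, was at 848, 593 and 684 CPM in Ctrl and at 1451 and 1350 CPM in Confine. The groups were far apart beside the spread within them. The level rose 1.98-fold (95% interval 1.51 to 2.60, log2 fold change 0.98, SE 0.19, edgeR adjusted p = 0.000707). Among the 4E-BP genes, Eif4ebp1 held 95.5% ± 1.41 of the summed FPKM in Ctrl and 97.9% ± 0.125 in Confine. Eif4ebp2, the next of them, was at 14.5 ± 3.06 FPKM in Ctrl and 13.8 ± 1.51 in Confine, with overlapping groups.

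**Figure D2:**
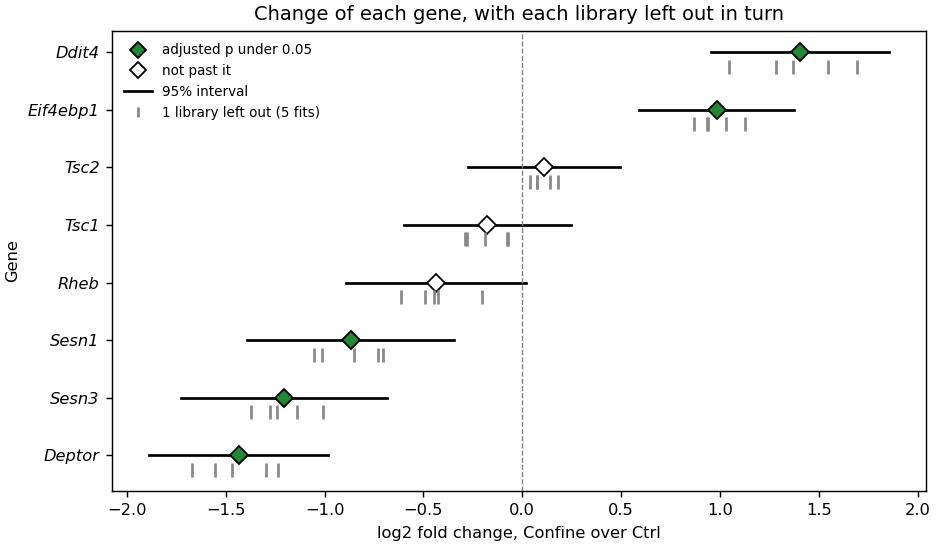
log2 fold change of the 8 tested genes, Confine over Ctrl; diamonds are the fitted values with 95% intervals, filled where the adjusted p was under 0.05, and ticks are the 5 fits with 1 library left out. Ddit4 stayed between 1.04 and 1.69 and Deptor between -1.67 and -1.23, while the interval of Rheb reached just past 0.

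The exact two-sided permutation test over libraries, on log2(CPM + 1), gave p = 0.1 for Ddit4, Sesn3, Deptor and Eif4ebp1, which is the smallest value that 3 against 2 libraries allow. The same exact permutation test gave p = 0.2 for Sesn1 and Rheb, p = 0.4 for Tsc1 and p = 0.5 for Tsc2. This permutation test thus cannot pass 0.05 for any gene in this design. The groups did not overlap in 6 of the 8 genes, where 49.5% of all tested genes were so.

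Per length, the order in Ctrl was Eif4ebp1 at 323 ± 58.7 FPKM, Ddit4 at 29.1 ± 5.66, Deptor at 9.36 ± 1.76, Rheb at 4.13 ± 1.13, Sesn1 at 3.41 ± 0.881, Tsc2 at 3.16 ± 0.318, Tsc1 at 1.70 ± 0.232 and Sesn3 at 0.896 ± 0.220 (SD, n = 3). In this order, Rheb and Sesn1, and Sesn1 and Tsc2, overlapped over the Ctrl libraries, and the other neighbours did not. In Confine the order opened the same way, with Eif4ebp1 at 638 ± 32.4 FPKM, Ddit4 at 76.9 ± 23.9 and Deptor at 3.46 ± 0.740 (SD, n = 2). Tsc2 came next at 3.40 ± 0.119, ahead of Rheb at 3.06 ± 0.0241 and Sesn1 at 1.87 ± 0.259. The lowest were Tsc1 at 1.51 ± 0.162 and Sesn3 at 0.388 ± 0.0268 FPKM. Deptor thus stood at a level near that of Tsc2 and Rheb in Confine, where it had been above both in Ctrl.

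A ratio of raw counts within a library needs no scaling between libraries. The Ddit4 to Deptor ratio was 0.702, 0.533 and 0.617 in Ctrl and 2.98 and 6.32 in Confine. Deptor thus had more counts than Ddit4 in every Ctrl library and fewer in both Confine libraries. The Ddit4 to Sesn3 ratio was 2.46 to 4.65 in Ctrl against 16.9 and 29.2 in Confine, and the Ddit4 to Sesn1 ratio was 3.49 to 4.27 against 15.7 and 20.1. The Eif4ebp1 to Rheb ratio was 20.0 to 27.8 in Ctrl against 61.8 and 56.9 in Confine. The Tsc1 to Tsc2 ratio overlapped between the groups, at 0.516 to 0.829 in Ctrl and 0.516 to 0.572 in Confine.

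**Figure D3:**
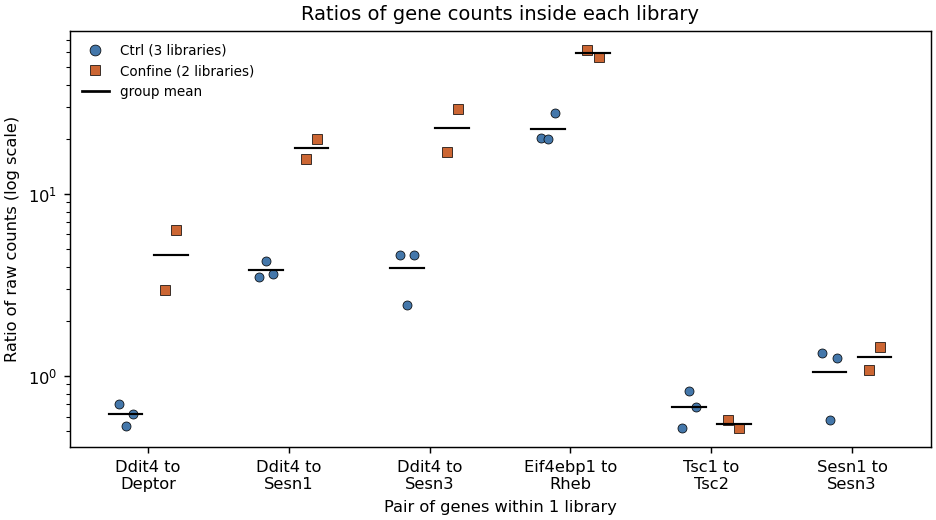
Ratios of raw counts (log axis) for 6 pairs of genes in each library; circles are the 3 Ctrl and squares the 2 Confine libraries, and bars are group means. The first 4 pairs separate the groups, with Ddit4 to Deptor at 0.533 to 0.702 in Ctrl and 2.98 to 6.32 in Confine, and the Tsc1 to Tsc2 and Sesn1 to Sesn3 pairs overlap.

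The rest of the pathway was read from 6 lists of 65 genes, of which 64 were tested, 7 rose, 5 fell and 52 were not called, beside 12.8% higher, 10.2% lower and 23.0% called in all among all tested genes. Their median log2 fold change was -0.05. None of the 4 mTORC1 complex genes was called: Mtor, the kinase, had a log2 fold change of -0.01 (95% interval -0.41 to 0.38), Rptor 0.21, Mlst8 -0.25 and Akt1s1, which encodes the inhibitor PRAS40, -0.03. Of the 4 genes found in mTORC2 alone, Rictor, its defining subunit, rose (log2 fold change 0.79, edgeR adjusted p = 0.00752) and Prr5l fell (-0.96, adjusted p = 0.00479). The Rictor call was lost without Confine 3 (edgeR adjusted p = 0.191) and the Prr5l call without Confine 1/2 (edgeR adjusted p = 0.121). Of the 12 called genes of the 6 lists, only Prkab2 stayed called with each library left out in turn. Without Confine 3, the median log2 fold change was -0.0059 over the tested genes of the 6 lists and -0.026 over all tested genes. Without Confine 1/2, these medians were -0.10 and -0.017. With library size alone as the scaling, 4 of the 64 rose and 10 fell, so the split by direction moved with the scaling.

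Among 15 upstream kinases and TSC partners, 3 rose and 2 fell, with a median log2 fold change of 0.14. Prkab2, which encodes a regulatory subunit of the energy sensor AMPK, was at 14.6, 17.3 and 16.3 CPM in Ctrl and at 66.6 and 86.8 CPM in Confine. Its groups were far apart, with the largest change of the called genes in this list (log2 fold change 2.25, SE 0.19, edgeR adjusted p = 9.16e-08). Another AMPK subunit gene, Prkag2, fell (-0.94, edgeR adjusted p = 0.0147). Akt2, a kinase gene that acts on TSC2 downstream of insulin, fell (-0.62, edgeR adjusted p = 0.0217). Prkag2 lost it without Ctrl 1 or Confine 1/2 and Akt2 without Ctrl 1 or either Confine library, at edgeR adjusted p values of up to 0.201 and 0.236.

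Sestrins act through the amino acid branch. Of 14 genes of GATOR, KICSTOR and the amino acid sensors, only Seh1l, a GATOR2 subunit also found in the nuclear pore, was called (log2 fold change 0.59, edgeR adjusted p = 0.0201), and not with library size alone as the scaling (0.38, edgeR adjusted p = 0.119). Of 14 genes of the Rag GTPases, Ragulator and folliculin, Rragb fell (-1.60, edgeR adjusted p = 0.0147) and Rragd rose (2.45, edgeR adjusted p = 0.0315). Both are low: Rragb had 65, 43 and 65 counts in Ctrl and 13 and 26 in Confine, and Rragd had 5, 3 and 0 counts in Ctrl and 16 and 15 in Confine. Of the 13 tested mTORC1 targets, Lpin1, a regulator of lipid synthesis, rose (0.65, edgeR adjusted p = 0.0432) and Rps6kb1, the S6 kinase gene, fell (-0.55, edgeR adjusted p = 0.0402). Lpin1 too was not called with library size alone (0.44, edgeR adjusted p = 0.171). Without Confine 3, the calls of Seh1l, Rragd, Lpin1 and Rps6kb1 were lost, at edgeR adjusted p values of 0.225, 0.194, 0.500 and 0.360. Without Confine 1/2, those of Seh1l, Rragb, Rragd and Rps6kb1 were lost, at 0.0690, 0.185, 0.153 and 0.1002. Without Ctrl 1, Seh1l, Lpin1 and Rps6kb1 lost theirs (0.0576, 0.209 and 0.119), and without Ctrl 3, Seh1l and Rragd did (0.0737 and 0.0800).

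**Figure D4:**
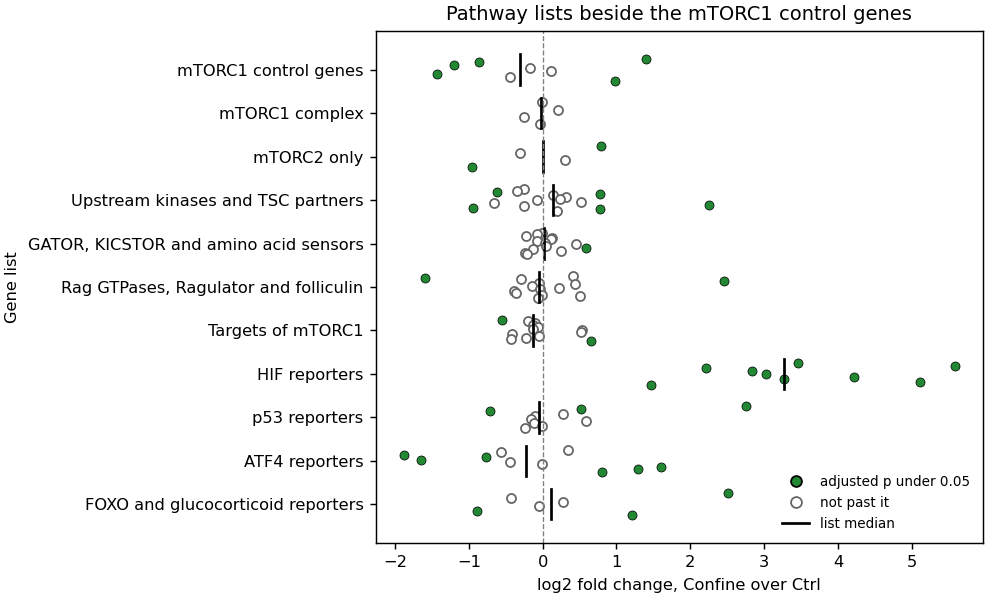
log2 fold change of each tested gene, Confine over Ctrl, in the mTORC1 control genes and in 10 lists; filled points had an adjusted p under 0.05, open points did not, and vertical bars are list medians. The mTORC1 complex has no filled point, while every tested HIF reporter is filled and lies between 1.47 and 5.59.

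The last 4 lists held reporters of factors known to induce REDD or sestrin genes, with the 9 genes themselves left out. Their counts stand beside 12.8% of all tested genes called higher and 10.2% called lower. All 9 tested HIF reporters rose, with a median log2 fold change of 3.26 and a range from 1.47 for the demethylase gene Kdm3a to 5.59 for the carbonic anhydrase gene Car9. Ankrd37 (5.11), Ndrg1 (4.21) and the mitophagy receptor gene Bnip3 (3.46) rose with them, each at an edgeR adjusted p of at most 5.06e-10. These moved in the same direction as Ddit4, and their part in its change was not tested. The oxygen the cells met is not given in the sources used here.

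The p53 reporters, among which Sesn1 is often counted, did not move together: 2 of 10 rose and 1 fell, with a median of -0.05. For the lists of this paragraph, the shares over all tested genes were 12.8% called higher and 10.2% called lower. The cell cycle inhibitor gene Cdkn1a rose (2.75, edgeR adjusted p = 1.26e-08), and so did Mdm2 (0.52, edgeR adjusted p = 0.0474), while Ccng1 fell (-0.71, edgeR adjusted p = 0.0148). Of 10 ATF4 reporters, 3 rose and 3 fell. The amino acid synthesis genes Asns (-1.88, edgeR adjusted p = 2.2e-06) and Psat1 (-1.64, edgeR adjusted p = 1.15e-05) fell, and Nupr1 (1.30, edgeR adjusted p = 2.46e-05) and Vldlr (1.60, edgeR adjusted p = 0.000107) rose. Of 6 tested FOXO and glucocorticoid reporters, Ccng2 (2.52, edgeR adjusted p = 1.66e-07) and the clock gene Per1 (1.21, edgeR adjusted p = 0.00185) rose and Fkbp5 (-0.89, edgeR adjusted p = 0.0118) fell. Without Confine 1/2, Ccng1, Fkbp5 and Mdm2 were not called (edgeR adjusted p = 0.249, 0.186 and 0.120), and Mdm2 was called in no other fit with 1 library left out than that without Ctrl 2, nor with library size alone (0.31, edgeR adjusted p = 0.229). The part of any of these factors in the sestrin changes was not tested.

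The genes whose log2 levels were most like each called gene over the 5 libraries were ranked by the root mean square difference of their centred log2 CPM among 11794 genes. They were Cyp4f13 for Ddit4 (0.0937), Ecm2 for Deptor (0.0629), Hoxa10 for Sesn3 (0.0832), Tomm40l for Sesn1 (0.0540) and Itprip for Eif4ebp1 (0.0617). The next for Ddit4 were Des, Fbxo36, Tgfb1 and Zfp970, and those for Eif4ebp1 were Pak1, Slc39a13, Col6a1 and Il4ra. All points share the same 5 libraries, so the values describe these libraries.

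The label MEF was read against marker lists, beside 12.8% of all tested genes called higher and 10.2% called lower. Of 12 fibroblast markers, 9 were tested, 6 rose and none fell, with a summed level of 8912 to 9831 CPM in Ctrl and 16038 to 16868 CPM in Confine, but Thy1 and Lum had at most 2 counts in a library and Dcn at most 27. Of 9 leukocyte markers, 4 were tested: Cd68, Csf1r and Cd14 rose and Lyz2 fell, and the list summed to 15.8 to 17.8 CPM in Ctrl and 35.6 to 41.3 CPM in Confine. Its defining genes Adgre1 and Cd3e were at 0 in every library and Ptprc had at most 2 counts. No epithelial or endothelial marker was tested, with summed levels of at most 0.675 and 0.718 CPM. The part of these marker changes in the results on the mTORC1 control genes was not tested.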

How the data were processed

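Polyadenylated RNA of 3 Ctrl and 3 Confine samples was sequenced from strand-marked libraries, and the authors deposited raw counts per gene, without normalization. The submitters' processing notes name Trim Galore 0.6.10, HISAT2 2.1.0, SAMtools 1.5, featureCounts and the mm10 build; the annotation and the strand setting are not given in the sources used here. Confine columns 1 and 2 were equal in all 55335 genes and were counted as 1 sample, which left 5 libraries of 22287210 to 32537550 counts; columns not used numbered 0. GENCODE M21 (GRCm38) holds 54587 of the identifiers in the deposited version and 55154 in any version, and gave names, positions and exon lengths.

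Genes kept by filterByExpr (15881) were scaled by TMM (factors 1.04, 1.08 and 1.06 in Ctrl, 0.910 and 0.924 in Confine) and entered the quasi-likelihood test (edgeR 4.0.16, R 4.3.3), with Benjamini-Hochberg adjustment over all of them and no block. FPKM was computed from normalized CPM and exon length. Permutation tests used scipy 1.17.1. Alternatives were library size alone, RLE, other filters, DESeq2 1.42.0, voom in limma 3.58.1, a replicate block, both identical columns and each library left out. Intervals and floors cover counting error and library spread only, since reads carried no molecular identifiers.

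The 9 genes, the pathway, reporter and marker lists, and the tests were chosen with earlier results of these data known. All 9 genes were named. In each list up to 4 called genes with the smallest adjusted p were named, and Mtor, Rptor, Mlst8, Akt1s1, Sesn2, Kdm3a and Eif4ebp2 were named besides; some list genes are not reported here. Each called gene was matched with the 5 genes most like it over the libraries, among genes with a mean of at least 50 counts. Promoter windows came from RefSeq (GRCm38.p6).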

Additional observations from a re-analysis of the deposited data

How the results depend on the processing

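Between 4 and 6 of the 8 genes were called when each library was left out in turn, and between 2054 and 4426 of all genes. With an absolute log2 fold change above 1.5 required as well, 0 of the 8 genes and 1271 of all genes passed. Ddit4, Sesn3, Deptor and Eif4ebp1 stayed called in the same direction, and Tsc1 not called, in all 14 alternatives. Sesn1 lost its call in 2 of them and Rheb gained one in 2, as given above: without either Confine library for Sesn1, with library size alone and without Ctrl 3 for Rheb. With library size alone the median over all genes moved by -0.21, the called genes split into 1444 higher and 2805 lower against 2035 and 1619 with TMM, and Tsc2 reversed to -0.099 (edgeR adjusted p = 0.732). With a replicate block, 5 of the 8 genes were called whether the repeated library was numbered 2 or 1, beside 2528 and 4933 of all genes. The pairing check gave correlations across genes of -0.053 and 0.052 over 2 pairs, so the numbers were not taken to pair the libraries.

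Stretches of at least 100 bases at 95% identity are shared with other transcripts by Sesn3 (14 genes), Tsc2 (86), Deptor (5) and Rheb (1), and how such reads were counted is not given in the sources used here. With 2 Confine libraries the spread of that group rests on a single difference.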
